A study of Homo sapiens with 8 samples.

Results

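Hemizygous Dicer-S1344L cells were compared with wild-type cells across all 594 miRNAs of the deposited table, in 4 of the study's 8 small RNA libraries. The members were taken from the labels alone: 2 wild-type and 2 hemizygous libraries. All libraries come from H1, an established line of human embryonic stem cells. The labels name no allele for the wild type. The hemizygous cells carry Dicer-S1344L. Their libraries have the short name pmfs, against pmpm for homozygous S1344L and fsfs for Dicer-null, so they share the code fs with the null cells. The labels spell out neither code. The number of edited clones is not given in the labels, so a clone and its genotype cannot be told apart. CRISPR-Cas9 editing made the mutant lines, per the series text. The labels give no treatment or culture time for any group. Homozygous S1344L and Dicer-null cells, 2 libraries each, entered the estimate of the spread, and the homozygous cells were the closest genotype for a direct test. The labels call the RNA samples biologically independent but name no cultures, so p-values measure the spread between these samples.

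Dicer cuts a hairpin precursor with a pair of RNase III domains: IIIb cuts the strand that carries the 5p arm, and IIIa cuts the strand that carries the 3p arm. Serine S1344 lies in the RNase IIIa domain, and its substitution recurs in tumours. Of the released duplex, Argonaute keeps mainly 1 arm as the guide, which finds its targets through the seed, bases 2 to 8, while the passenger arm is usually discarded. Embryonic stem cells are known for high levels of the miR-302, miR-372 and miR-373 guides, which share a seed with each other.

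The sequences below show why an exchange of arms is an exchange of seeds. They are RefSeq sequences on GRCh38.p14, 5′ to 3′, with the seed in capitals, and 533 of the 594 miRNAs matched that table. The first 6 are the arms of hairpins whose arm ratio shifted toward 3p. In let-7a the sum of both arms also fell steeply, as given below. The next 4 are the largest fall and rise among those named and a pair of abundant 3p guides with the same seed. The last is a 3p arm that fell.
miR-20a-5p: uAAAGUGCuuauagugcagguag
miR-20a-3p: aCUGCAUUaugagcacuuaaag
miR-17-5p: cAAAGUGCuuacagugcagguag
miR-17-3p: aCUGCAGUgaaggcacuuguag
let-7a-5p: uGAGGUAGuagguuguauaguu
let-7a-3p: cUAUACAAucuacugucuuuc
miR-345-5p: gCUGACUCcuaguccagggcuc
miR-16-2-3p: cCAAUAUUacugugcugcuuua
miR-302b-3p: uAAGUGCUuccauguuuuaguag
miR-302a-3p: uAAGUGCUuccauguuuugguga
miR-222-3p: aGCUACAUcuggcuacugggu
miR-20a and miR-17 lie on the plus strand of MIR17HG, a long non-coding host gene, at chr13:91351065-91351135 and chr13:91350605-91350688. miR-345 lies at chr14:100307859-100307956 on the plus strand, with no GENCODE host on that strand. miR-16-2 lies in an intron of SMC4 at chr3:160404745-160404825, plus strand. The miR-302b hairpin is at chr4:112648485-112648557, minus strand, in the non-coding gene AC106864.1. miR-222 is at chrX:45747015-45747124, minus strand, in an intron of MIR222HG. let-7a-5p is encoded at 3 loci, on chromosomes 9, 11 and 22, whose reads cannot be told apart. let-7a-3p is encoded at 2 of them, on chromosomes 9 and 22, so the arms of let-7a do not cover the same hairpins.

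A pair of whole hairpins shows the geometry, with both mature arms in capitals. MIR20A is a hairpin whose arm ratio switched and MIR302C, at chr4:112648363-112648430 on the minus strand, is an abundant hairpin whose ratio change did not pass the test.
MIR20A: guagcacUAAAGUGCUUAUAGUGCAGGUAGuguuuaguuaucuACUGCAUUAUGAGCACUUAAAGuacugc
MIR302C: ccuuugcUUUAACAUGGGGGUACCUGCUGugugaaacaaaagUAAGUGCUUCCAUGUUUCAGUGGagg
In each, the arm nearer the 5′ end is 5p and the arm nearer the 3′ end is 3p.

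The wild-type libraries held 2680973 and 2725756 miRNA reads and the hemizygous libraries 1000101 and 1833057. The deposited scale, reads per 1000000 of a library denominator (RPM), differs from a share of miRNA reads. Divided by that denominator, the miRNA total was 2.09 and 2.33 for the wild type, but 0.729 and 2.42 for hemizygous replicates 1 and 2. Hemizygous replicate 1 therefore stood apart on that scale: the median miRNA was 1.94 higher on the log2 RPM scale in replicate 2. As a share of the library's miRNA reads, that gap was 0.27, against 0.07 between the wild-type libraries. Results below therefore lead with reads per 1000000 miRNA reads (RPMM), called the share, and with ratios within a library. A share has a fixed sum, so a rise in some miRNAs and a fall in others are not independent. In bulk RNA, fewer cells of a type and less RNA per cell cannot be told apart.

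The 5p arms lost their place among the abundant miRNAs of hemizygous cells. Of all reads on arm-named miRNAs, 5p arms held 31.9% and 34.0% in wild-type cells and 9.62% and 11.3% in hemizygous cells, a difference of -22.5 percentage points. The hemizygous pair lay well below the wild-type pair, and the groups did not overlap. With 2 against 2 libraries the smallest p an exact permutation test can give is 0.333, and this two-sided test gave 0.333. A few very abundant miRNAs weigh heavily in this sum. With each of 177 hairpins given equal weight (at least 20 reads in each of the 4 libraries), the mean 5p share of a hairpin was 57.4% and 57.1% in the wild type and 32.6% and 30.7% in hemizygous cells. The median hairpin went further, from 72.0% and 71.5% to 17.2% and 15.7%.

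Ranks within a library gave the same order. Among the 50 most abundant miRNAs, 25 and 26 were 5p arms in wild-type cells, against 9 and 10 in hemizygous cells. Among the 10 most abundant there were 3 in each wild-type library, and 0 and 1 in the hemizygous libraries. The reads also gathered on fewer miRNAs: the 10 most abundant took 49.4% and 49.1% of the miRNA reads in the wild type and 62.2% and 59.1% in hemizygous cells.

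**Figure D1:**
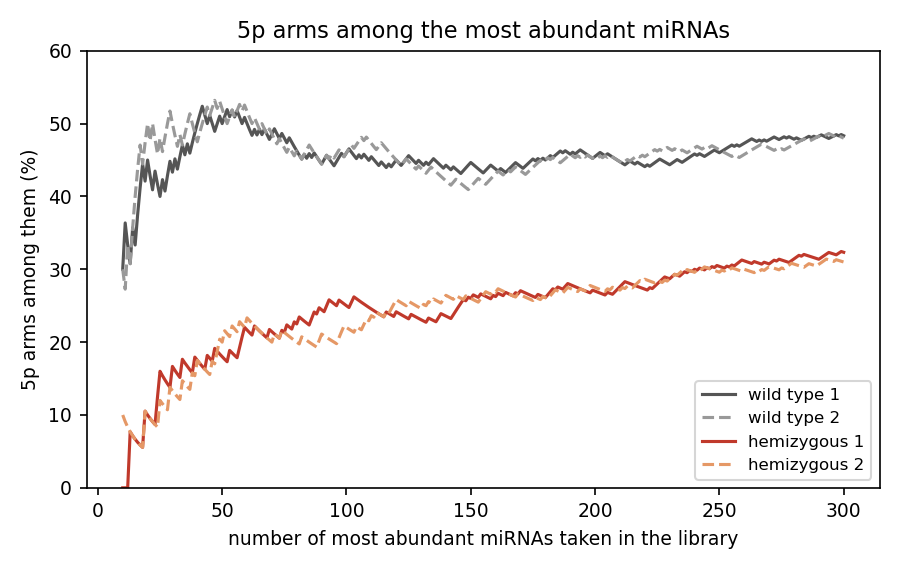
Share of 5p arms (percent, y axis) among the most abundant miRNAs of each library, for the first 10 to the first 300 miRNAs by reads (x axis); grey lines are the 2 wild-type and red or orange lines the 2 hemizygous libraries. Among the first 50, 25 and 26 are 5p arms in the wild type and 9 and 10 in hemizygous cells.

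The miRNAs that fell most, by the same minimum of 50 RPMM in 1 group, were 5p arms. miR-345-5p had 714 and 1093 RPMM in wild-type cells and 12.0 and 13.6 in hemizygous cells. Both hemizygous values were far below both wild-type values, a log2 share change of -6.00 ± 0.46 (SE, n = 2 per group, limma adjusted p = 4.49e-05). Changes of single miRNAs and hairpins below are limma estimates, and the value after ±, where given, is the SE. miR-7-5p, a regulator of EGF receptor signalling, went from 2854 and 1563 to 54.0 and 28.9 (-5.70 ± 0.46). let-7a-5p, a guide that promotes differentiation and is kept low in stem cells, went from 3179 and 2352 to 68.0 and 94.4 (-5.08 ± 0.33, limma adjusted p = 2.76e-05). miR-34a-5p, a p53 target that restrains the cell cycle, went from 1595 and 1512 to 43.0 and 48.0 (-5.06 ± 0.29). In each of these 4, the gap between the hemizygous libraries was small beside the fall.

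The other 8 of the 12 largest falls were miR-185-5p, miR-324-5p, miR-218-5p, miR-99b-5p, miR-1307-5p, miR-525-5p, miR-181a-5p and miR-150-5p, from -5.42 to -4.88. Each of the 12 also fell on the deposited RPM scale. miR-150-5p, best known from lymphocytes, rested on few reads: 377 and 651 in the wild type, but 1 and 34 in the hemizygous libraries. Its change was -3.24 without hemizygous replicate 1 and -6.53 without replicate 2. In miR-185-5p the reads were 1646 and 1473 against 11 and 28, so that counting error alone is large in the hemizygous values.

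Among miRNAs with at least 50 RPMM in 1 group, those that rose most were passenger arms of the 3p side. miR-16-2-3p, the usually discarded arm of a hairpin whose guide restrains the cell cycle, had 138 and 212 RPMM in the wild type and 2000 and 3599 in hemizygous cells. That is a log2 share change of 3.96 ± 0.32 (SE, limma adjusted p = 6.23e-05), with no overlap of the groups. miR-20a-3p, the passenger of a growth-promoting hairpin of the miR-17-92 cluster, went from 815 and 1195 to 12337 and 13856 (3.73 ± 0.26, limma adjusted p = 3.41e-05). Its rank rose from 151 and 127 to 15 and 13, so that a passenger came to lie among the 20 most abundant miRNAs. miR-20b-3p, from the paralogous cluster, went from 224 and 261 to 2100 and 2302 (3.18 ± 0.40).

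The remaining rises were of less abundant arms. miR-135b-3p went from 27.6 and 27.1 to 481 and 308, and miR-15a-3p from 54.8 and 52.5 to 785 and 546. miR-219a-2-3p, miR-33b-3p, miR-30b-3p, miR-450a-1-3p, miR-30d-3p, miR-30c-1-3p and miR-135a-2-3p rose by 3.18 to 3.71. miR-33b-3p rested on 12 and 95 wild-type reads. Leaving out wild-type replicate 1 brought its change to 2.23 and ended the call, and the call was also lost without hemizygous replicate 2 (2.75). All 12 also passed on the deposited RPM scale, with limma adjusted p from 0.00179 to 0.0386.

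**Figure D2:**
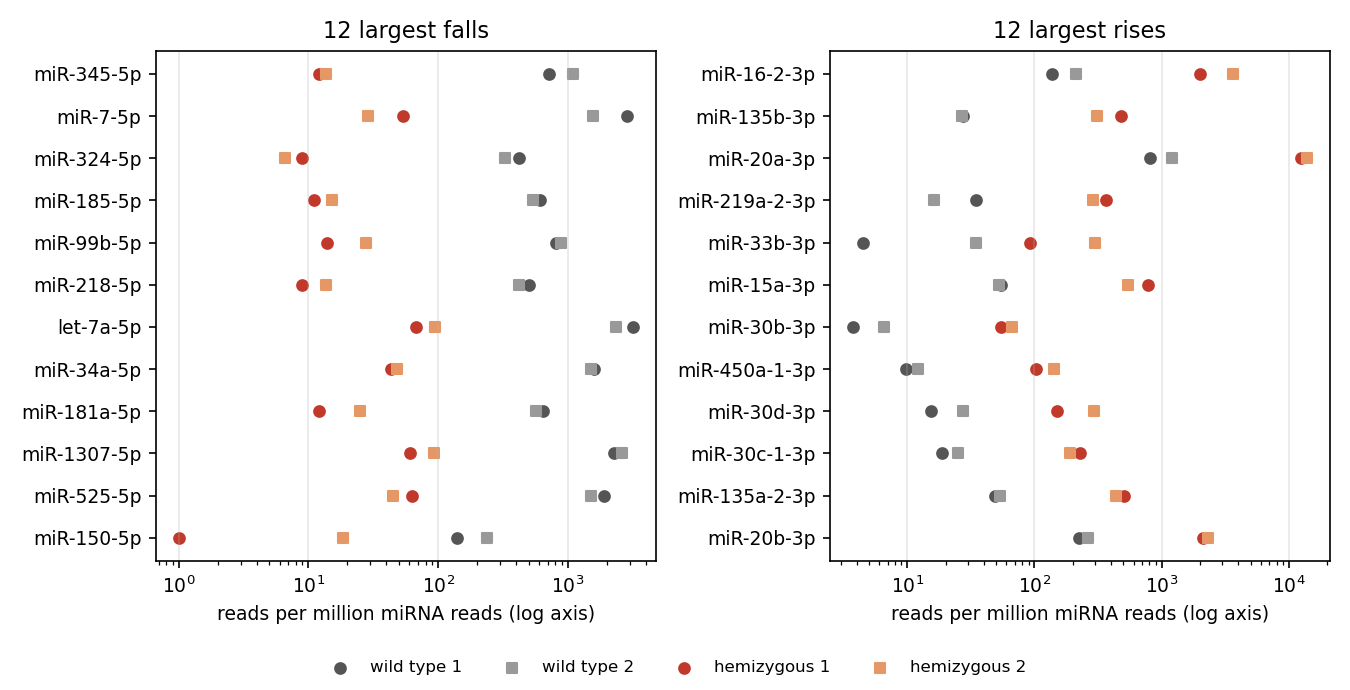
RPMM (x axis, log scale) in each of the 4 libraries for the 12 miRNAs with the largest falls (left) and the 12 with the largest rises (right) in hemizygous cells; each point is a library. All falls are 5p arms and all rises 3p arms; groups that do not overlap were a condition of the choice.

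Over all 594 miRNAs, limma called 295 changed in share (49.7%), 100 higher (16.8%) and 195 lower (32.8%), and 436 had groups that did not overlap (73.4%, and 53.2% on the deposited RPM scale). The split by arm was steep. Of 227 5p arms, 143 fell, 5 rose and 79 did not pass, with a median log2 share change of -2.19. Of 300 3p arms, 93 rose, 36 fell and 171 did not pass, with a median of 0.47, which turned to -0.18 on the RPM scale. Among 67 miRNAs with no arm in the name, 2 rose and 16 fell. Leaving out 1 library at a time left between 123 and 141 falling 5p arms and between 57 and 89 rising 3p arms. Without wild-type replicate 1, 57 miRNAs in all were called higher.

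The split of higher against lower calls depended on the scaling. On the deposited RPM scale 205 of 594 were called (34.5%), 24 higher (4.04%) and 181 lower (30.5%), with a median change of -0.92. Median-ratio factors gave 172 higher and 165 lower with a median of 0.33, and upper-quartile factors 224 and 148 with a median of 0.82. The number of falling 5p arms moved little: 137 on the deposited scale, 143 by share, 128 by median-ratio and 116 by upper-quartile scaling. The number of rising 3p arms moved much more, from 24 to 93, 143 and 174. Hemizygous replicate 1 set part of the deposited-scale counts: without it 92 were higher and 161 lower, and without hemizygous replicate 2, 18 were higher and 348 lower. Without wild-type replicate 1 the deposited-scale counts were 3 and 120, and without replicate 2, 6 and 103. Of the 47 named miRNAs that fell in share, 40 also fell on each of the 3 other scales. Of the 33 that rose, all also rose by median-ratio and upper-quartile scaling, but 12 did on the RPM scale.

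**Figure D3:**
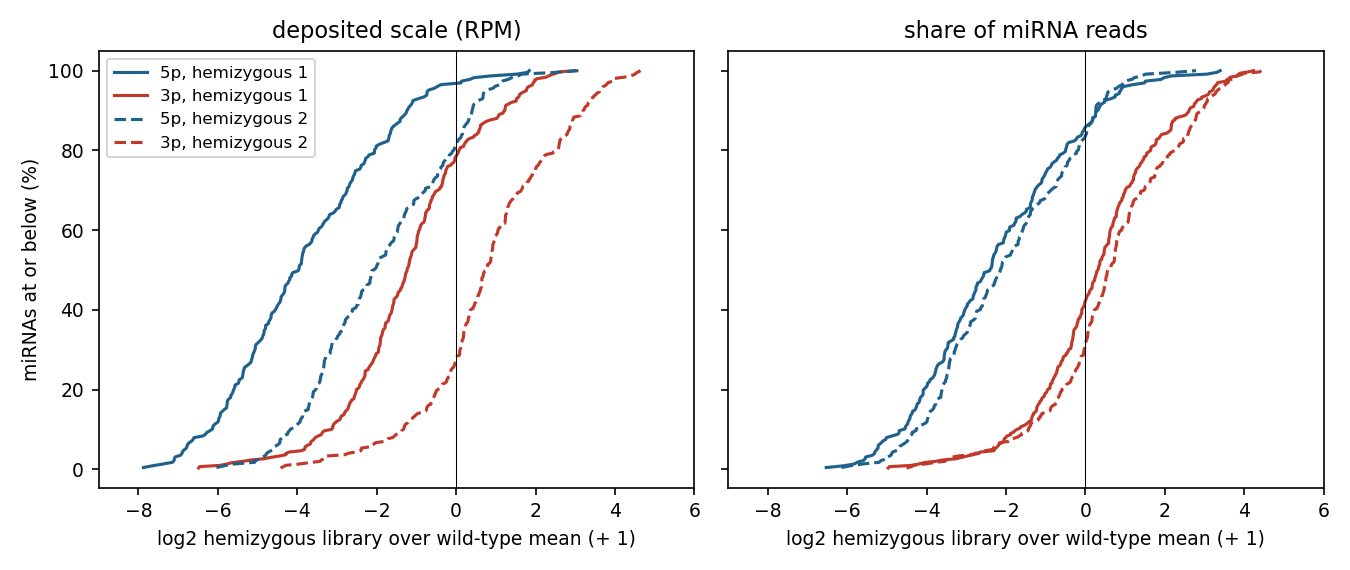
Cumulative share of 5p (blue, 227) and 3p (red, 300) miRNAs (percent, y axis) against the log2 ratio of each hemizygous library to the wild-type mean (x axis), on the deposited RPM scale (left) and as a share of miRNA reads (right); solid and dashed lines are hemizygous replicates 1 and 2. The replicates lie apart on the left and nearly together on the right, and 5p arms lie to the left of 3p arms in both panels.

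A few arms went against their side. The 5 5p arms that rose in share were miR-10401-5p, miR-6724-5p, miR-561-5p, miR-532-5p and miR-135a-5p, by 0.48 to 1.60. miR-135a-5p was the abundant member, at 6538 and 7426 RPMM in the wild type and 9232 and 10211 in hemizygous cells (0.48 ± 0.16 in share, limma adjusted p = 0.0397). On the RPM scale it was at -0.25, so its direction turned with the scaling. Its call was also lost with a block for the replicate number. miR-532-5p went from 213 and 307 to 400 and 688 (1.03 ± 0.34, limma adjusted p = 0.0386). Each of these 5 calls was lost under at least 3 of the 4 single omissions of a library. miR-532-5p was then at 0.64 to 1.42 and miR-6724-5p at 0.79 to 1.91.

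Of the 3p arms above 500 RPM in wild-type cells, the 6 largest falls were as deep as those of many 5p arms. miR-222-3p, a guide that represses the cell-cycle inhibitor p27, went from 4646 and 4466 to 225 and 320 RPMM (-4.08 ± 0.24, limma adjusted p = 2e-05). miR-1180-3p went from 308 and 365 to 10.0 and 15.3 (-4.65 ± 0.61), and miR-887-3p from 388 and 350 to 21.0 and 15.3 (-4.29 ± 0.42). miR-1307-3p, miR-324-3p and miR-301b-3p fell by 3.85, 3.82 and 3.58 on the log2 share scale. For miR-1307 and miR-324 the 5p arms fell too, by 5.00 and 5.42, so both arms of these hairpins were lost together.

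The ratio of 3p to 5p reads within a hairpin does not depend on the library scale, apart from the 1 RPM added to each arm. Of 186 hairpins with both arms in the table, 146 changed their ratio (78.5%), 143 toward 3p (76.9%) and 3 toward 5p (1.61%). The median change was 2.89 on the log2 scale, a 7.39-fold shift. The 3p arm had more reads than the 5p arm in 71 and 75 hairpins in the wild-type libraries and in 121 and 127 in the hemizygous libraries. Leaving out 1 library at a time gave 130 to 140 shifts toward 3p.

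Among hairpins with at least 50 RPM in both groups, the largest shift was in miR-150, where the 5p arm went from 99.2% and 99.1% of the hairpin's reads to 2.04% and 35.1%, with few hemizygous reads. miR-15a was better covered: its 5p arm, a cell-cycle-restraining guide, held 98.4% and 98.2% in the wild type and 10.8% and 21.7% in hemizygous cells (ratio change 8.29 ± 0.60 SE, limma adjusted p = 1.05e-07). In let-7a the 5p arm went from 99.1% and 97.8% to 42.2% and 35.7% (6.74 ± 0.58). In miR-34a it went from 96.4% and 93.4% to 17.7% and 13.5% (6.70 ± 0.47). In these 3 hairpins the wild-type guide became the minor arm, while the sum of both arms fell in each, as given below. The shifts of miR-503, miR-185, miR-99b, miR-181a, miR-34c and miR-182 ran from 6.71 to 7.52. miR-181a-5p also comes from a second hairpin, whose 3p arm is listed apart as miR-181a-2-3p. With it added, an alternative chosen after seeing the data, the 3p reads of miR-181a were 26 and 53 in the wild type and 18 and 120 in hemizygous cells, against 1721 and 1560 and then 12 and 46 of 5p (ratio change 6.37). Such a numbered copy exists for 4 of the 186 hairpins, and adding all of them left 143 shifts toward 3p. let-7a is not among the 4, although its 5p arm has more loci than its 3p arm.

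In the miR-17-92 hairpins, whose ratios were chosen for naming after their values were seen, the shift in ratio involved abundant species. The 5p arm of miR-20a held 96.4% and 95.0% of the reads in the wild type and 17.7% and 19.1% in hemizygous cells (6.65 ± 0.47). The 5p arm of miR-17 went from 89.9% and 90.2% to 18.6% and 23.9% (5.07 ± 0.47). The 5p arm of miR-18a went from 83.8% and 85.7% to 5.53% and 10.0% (6.11 ± 0.46).

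The 3 shifts toward 5p were in miR-320a (-4.42 ± 0.75), miR-203b (-2.18 ± 0.59) and miR-10401 (-1.11 ± 0.38). In miR-320a, which is made without Drosha, the 3p guide fell from 2987 and 3541 to 662 and 902 RPMM, while the 5p arm had only 4 and 41 reads in the wild type. miR-203b lost its call without hemizygous replicate 1 (-1.24), and miR-10401 without that library (-0.79) or wild-type replicate 2 (-0.96).

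Hairpins with well-covered arms (at least 200 RPM each in the wild type) did not all switch. The ratio changed least in miR-532 (0.04 ± 0.50), miR-367 (0.12 ± 0.63), miR-455 (0.26 ± 0.39), miR-302c (0.35 ± 0.39), miR-30e (0.59 ± 0.60) and miR-342 (0.80 ± 0.62), none of which passed. In miR-302c the 5p arm held 9.46% and 12.5% in the wild type and 7.20% and 10.5% in hemizygous cells, so the groups overlapped. In miR-30e it held 92.4% and 92.8% against 93.5% and 82.8%. miR-1307 (1.15) and miR-373 (1.26) were next and passed. The call of miR-1307 was lost whichever of the 4 libraries was left out (1.04 to 1.27), and that of miR-373 without wild-type replicate 2 (0.99) or hemizygous replicate 1 (0.74).

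**Figure D4:**
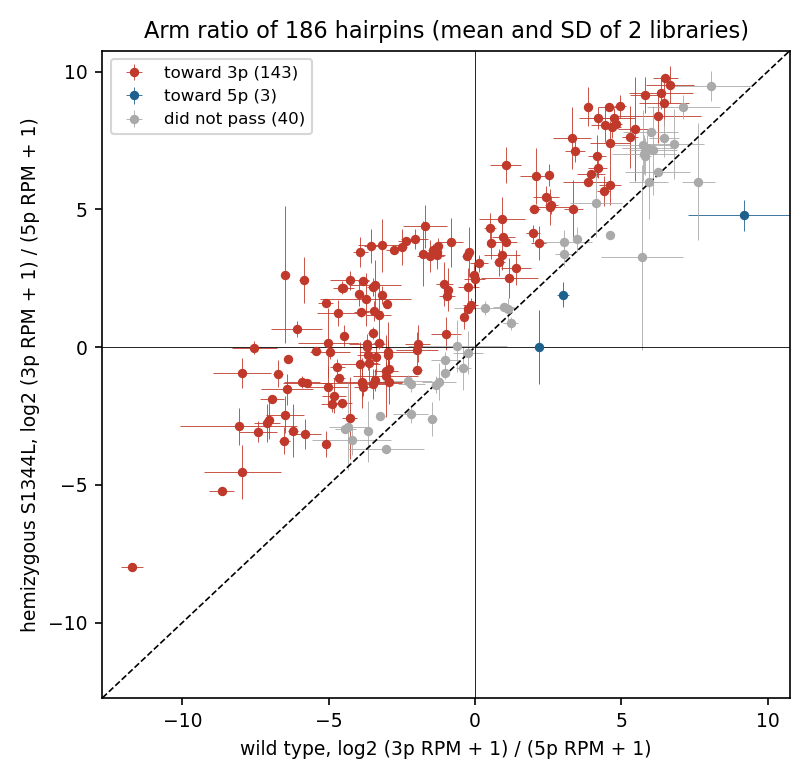
Log2 ratio of 3p to 5p RPM (1 added to each) of 186 hairpins in hemizygous cells (y axis) against wild-type cells (x axis); points are means and bars the SD of 2 libraries, and the dashed line marks equal ratios. Red points (143) moved toward 3p, blue points (3) toward 5p, and grey points (40) did not pass.

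The arm ratio does not say whether reads moved from an arm to its partner or whether an arm was lost. In the 143 hairpins shifted toward 3p, the 5p share fell and the 3p share did not pass in 63, the 5p fell and the 3p rose in 45, and the 5p did not pass and the 3p rose in 18. Both arms fell in 8, neither passed in 8, and both rose in 1. The sum of both arms gave a second view. Of 186 hairpins, the sum changed in 104 (55.9%): it fell in 84 (45.2%) and rose in 20 (10.8%), with a median log2 change of -0.61.

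The sum fell most in miR-1307, from 2897 and 3244 to 94.0 and 146 RPMM (-4.70 ± 0.39, limma adjusted p = 6.79e-05). miR-324 (-4.52), miR-181a (-4.49), miR-744 (-4.34) and miR-205 (-3.89) followed, miR-205 being known from epithelia. With the 3p arm of its second hairpin added, miR-181a was at -3.55. In miR-205 the sum went from 4615 and 4727 to 281 and 351. The largest rises were small beside these: miR-653 (1.23), miR-561 (1.10), miR-532 (1.07), miR-372 (1.02) and miR-124 (1.01). The rises of miR-653, miR-561 and miR-372 were each lost under at least 3 of the 4 single omissions, where they ran from 0.68 to 1.77, 0.76 to 1.43 and 0.94 to 1.09, and the count of rises was 8 without wild-type replicate 1 and 11 without wild-type replicate 2. The rise of miR-653 was also lost with a block for the replicate number. In miR-18a the sum hardly moved, from 18072 and 17833 to 20499 and 16817, while its arms exchanged places. In miR-15a it fell from 3509 and 2891 to 880 and 697, so the rise of its 3p arm covered a small part of the loss. The sums of let-7a (-3.74) and miR-34a (-2.47) fell too, so their shifts in ratio went with a loss of share.

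**Figure D5:**
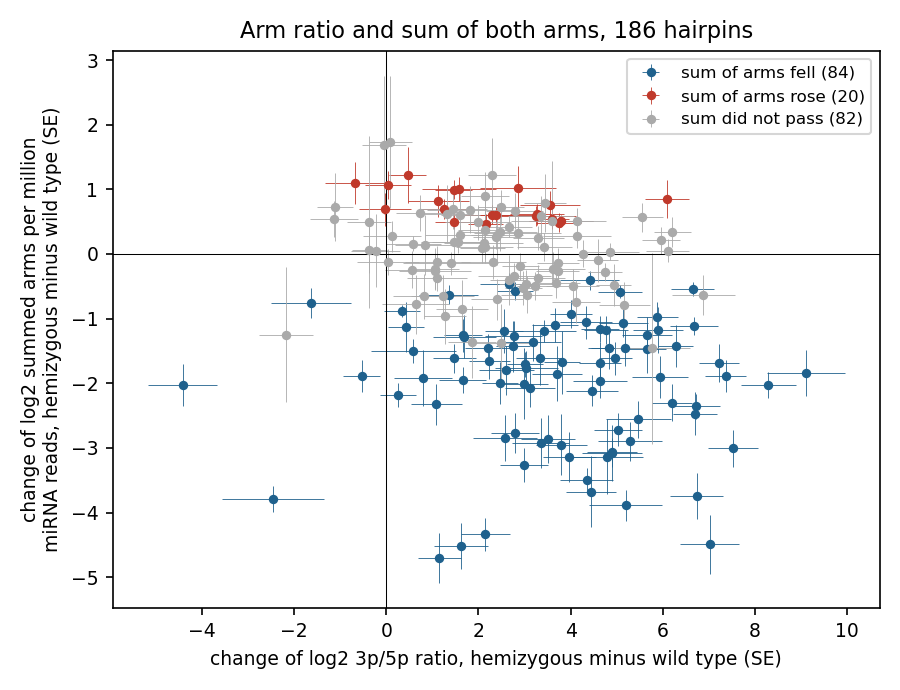
Change of the log2 ratio of 3p to 5p (x axis) against change of the log2 sum of both arms per 1000000 miRNA reads (y axis), hemizygous minus wild type, for 186 hairpins; points are limma estimates and bars their SE. Blue points (84) have a sum that fell, red points (20) one that rose, and grey points (82) one that did not pass; most points lie to the right of 0.

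The pluripotency guides kept the top of the list. The 5 most abundant miRNAs of each of the 4 libraries were the 3p arms of miR-302a, miR-302b, miR-302c, miR-302d and miR-367. miR-302b-3p was first in all 4, at 94178 and 85986 RPMM in the wild type and 138677 and 131323 in hemizygous cells (0.58 ± 0.23 in share, limma adjusted p = 0.0747; -0.15 on the RPM scale). miR-302a-3p went from 76937 and 69707 to 130041 and 121477 (0.78 ± 0.16 in share, limma adjusted p = 0.00425; 0.05 on the RPM scale). miR-302d-3p rose in share by 0.55, with -0.18 on the RPM scale, and miR-367-3p was at 0.28 and -0.46. miR-302c-3p went the other way, from 85225 and 74984 to 44707 and 44075 (-0.85 ± 0.11 in share, limma adjusted p = 0.000508). It was at -1.58 on the RPM scale, -0.26 by median-ratio and 0.25 by upper-quartile scaling, so its direction depended on the scaling. It ranked 2 and 3 in the wild-type libraries and 5 in both hemizygous libraries.

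The 5p arms of this cluster did not move alike. In miR-302b the 5p arm went from 3.82% and 7.01% of the hairpin to 0.255% and 0.378% (ratio change 4.13 ± 0.63), and in miR-302d from 2.82% and 3.46% to 0.284% and 0.190% (3.79 ± 0.69). In miR-302a it went from 22.8% and 32.5% to 9.02% and 15.5% (1.48 ± 0.42, and 1.13 and not called without wild-type replicate 2), and in miR-302c and miR-367 the ratio did not pass. Thus 3 of 5 hairpins shifted, beside 143 of all 186. miR-302a-5p remained in the first 10 of hemizygous replicate 2 and was at -0.70 ± 0.28 (limma adjusted p = 0.0731). It passed with a block for the replicate number, and also without wild-type replicate 1 (-0.98) or hemizygous replicate 2 (-1.10).

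In the miR-371 to miR-373 cluster on chromosome 19, all 3 hairpins shifted toward 3p, beside 143 of all 186. miR-371a went from 52.6% and 56.9% of 5p reads to 8.42% and 9.76% (3.60 ± 0.36), and miR-372 shifted by 2.86, which was 2.09 and not called without wild-type replicate 2. All 3 3p arms rose in share, beside 93 of all 300. The rises were 1.55 ± 0.16 for miR-371a-3p, 1.03 for miR-372-3p and 0.73 for miR-373-3p. On the RPM scale they were at 0.82, 0.30 and -0.00, and none was called. The call of miR-372-3p was lost whichever of the 4 libraries was left out (0.96 to 1.11), and that of miR-373-3p without wild-type replicate 1 (0.67) or hemizygous replicate 2 (0.69). miR-371a-5p fell by 2.05 ± 0.24.

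The miR-17-92 cluster and its paralogs, which promote growth, held 14 5p and 13 3p arms. Of the 5p arms 9 fell and 5 did not pass (median -2.70), beside 143 of all 227 (median -2.19). Of the 3p arms 10 rose and 3 did not pass (median 0.74), beside 93 of all 300 (median 0.47). On the RPM scale 11 of the 14 5p arms fell and 2 of the 13 3p arms rose (3p median 0.01). All 10 hairpins with both arms shifted toward 3p, beside 143 of all 186. The sum of both arms fell in 7 of these 10 and rose in 2, beside 84 and 20 of all 186. It was at -0.58 in miR-17 and -0.54 in miR-20a. miR-17-5p went from 22414 and 23021 to 3200 and 3958 RPMM (-2.67 ± 0.15, limma adjusted p = 2e-05). miR-20a-5p (-2.92) and miR-18a-5p (-3.46) fell as well. miR-18a-3p, a passenger, went from 2924 and 2551 to 19365 and 15131 (2.65 ± 0.37 in share; 1.92 and not called on the RPM scale) and entered the first 10 of both hemizygous libraries. The guides that lie on the 3p side, miR-19b-3p, miR-19a-3p and miR-92a-3p, rose in share by 0.62, 0.60 and 0.56, with -0.11, -0.13 and -0.17 on the RPM scale. The call of miR-19a-3p was lost without either wild-type library (0.55 and 0.64) or hemizygous replicate 1 (0.40).

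The primate-specific cluster on chromosome 19, active in placenta and stem cells, had 29 5p arms of which 23 fell and 6 did not pass (median -3.35), beside 143 of all 227 5p arms. Of its 31 3p arms 7 rose and 2 fell in share (median 0.14), beside 93 and 36 of all 300. On the RPM scale none of the 31 passed (median -0.59). Of its 28 hairpins 25 shifted toward 3p, beside 143 of all 186. miR-515-5p went from 4906 and 4271 to 470 and 414 (-3.37 ± 0.18), and miR-525-5p from 1897 and 1498 to 63.0 and 45.3. miR-512-5p stood at 3852 and 3179 against 4877 and 3184 (0.17 ± 0.23, not past the threshold). miR-518b was at 0.50 in share and -0.23 on the RPM scale, a call lost whichever of the 4 libraries was left out (0.47 to 0.53). Members of this cluster are nearly identical, and how shared reads were split between them is not stated in the sources used.

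The family of miR-15 and miR-16, whose guides restrain the cell cycle, had all 7 of its 3p arms rise in share. Their median was 3.04, and 93 of all 300 3p arms rose. On the RPM scale 3 of the 7 rose (median 2.38). Of the 7 5p arms 4 fell in share and 3 did not pass, beside 143 falls among all 227. Their median was -0.60, and 0.50 by upper-quartile scaling. The guides have overlapping seeds yet differed widely. miR-15a-5p went from 3454 and 2838 to 95.0 and 151 RPMM (-4.70 ± 0.28), and miR-503-5p fell by 3.97. miR-16-5p fell from 11018 and 10144 to 3040 and 3492 (-1.70 ± 0.18; by upper-quartile scaling -0.60 and not called) and miR-424-5p by 0.60, a call that was lost without either wild-type library (-0.50 and -0.70) or hemizygous replicate 2 (-0.46). miR-424-5p was called on no other scale and was at 0.50 by upper-quartile scaling. miR-15b-5p was at -0.09 ± 0.22 and miR-195-5p at 0.45 ± 0.24, neither past the threshold.

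In the let-7a, miR-99, miR-100 and miR-125 list, whose guides mark differentiation, 4 of 5 5p arms fell (median -3.97) and 4 of 5 3p arms rose (median 2.84), and all 4 hairpins shifted toward 3p. Over all miRNAs 143 of 227 5p arms fell, 93 of 300 3p arms rose and 143 of 186 hairpins shifted. By median-ratio and by upper-quartile scaling 3 of the 5 5p arms fell, and on the RPM scale 2 of the 5 3p arms rose. miR-99b-5p went from 816 and 880 to 14.0 and 27.8, and its partner miR-99b-3p from 77.2 and 66.4 to 265 and 265. The rise of miR-99b-3p was 1.87 ± 0.47 in share (1.15 and not called on the RPM scale) and was lost without wild-type replicate 2 (1.77). miR-125b-5p fell by 3.97 ± 0.32 and miR-125a-5p by 1.26 ± 0.27, the latter lost without wild-type replicate 1. miR-125a-5p was called on the share scale only, at -1.99 on the RPM scale, -0.67 by median-ratio and -0.16 by upper-quartile scaling. miR-100-5p, with 55.2 and 77.0 RPMM against 12.0 and 20.2, did not pass in share but fell by 2.72 on the RPM scale (limma adjusted p = 0.0237). Its share change also passed in a fit of only the 4 libraries compared and in one without the null libraries.

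In the miR-30 family 2 of 5 5p arms fell and 4 of 6 3p arms rose, beside 143 of 227 and 93 of 300 overall. miR-30c-5p went from 6276 and 5783 to 547 and 610 (-3.38 ± 0.20) and miR-30a-5p fell by 2.41. miR-30e-5p, with the same family seed, had 4769 and 4681 against 5375 and 4687 (0.09 ± 0.14), with overlapping groups. In the p53-linked miR-34 family, miR-34a-5p and miR-34c-5p (-4.25 ± 0.42) fell, whereas miR-34b-5p had 141 and 107 against 159 and 98.2 (0.03 ± 0.39). All 3 hairpins of the family shifted toward 3p, beside 143 of all 186. miR-34a-3p rose by 1.63 in share, with 0.91 on the RPM scale, a call lost without wild-type replicate 1 (1.20) or hemizygous replicate 2 (1.32).

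All 4 5p arms of the miR-181 family fell, beside 143 of 227 overall: miR-181a-5p by 5.04 and miR-181b-5p, miR-181c-5p and miR-181d-5p by 2.43, 3.61 and 3.75. None of its 4 3p arms passed in share (0 of 4 in limma, against 2 by median-ratio and by upper-quartile scaling). Both hairpins lost reads in total, beside 84 of all 186. In the cluster of miR-183, miR-96 and miR-182, which is known from sensory cells and is expressed in stem cells, all 3 5p arms fell: miR-182-5p by 4.34, miR-183-5p by 4.23 and miR-96-5p by 1.25. On each of the 3 other scales only 2 of the 3 were called, since miR-96-5p was at -1.98 on the RPM scale, -0.66 by median-ratio and -0.15 by upper-quartile scaling. The 3 hairpins of the cluster shifted toward 3p, beside 143 of all 186, and all 3 fell in total, beside 84 of all 186. miR-182-3p rose by 2.36 in share (1.64 and not called on the RPM scale).

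Families whose guides are 3p arms moved in both directions. In the family of miR-130, miR-301 and miR-454 3 of 5 3p arms fell and 1 rose, beside 36 and 93 of all 300. miR-301a-3p went from 2232 and 1952 to 497 and 426 RPMM (-2.18 ± 0.28), and miR-454-3p fell by 1.70. miR-130a-3p, far more abundant, had 12578 and 12462 against 14066 and 14522 (0.19 ± 0.12, not past the threshold). miR-130b-3p rose by 0.71 in share, with -0.02 on the RPM scale. In the epithelial family of miR-200 and miR-141 1 of 4 3p arms rose, beside 93 of all 300. It was miR-200b-3p, at 0.83 in share and 0.10 on the RPM scale. Its call was lost without either wild-type library (0.74 and 0.92) or hemizygous replicate 2 (0.48). miR-200c-3p was at 0.25 and did not pass, while miR-429 of the same family, which the table names without an arm, fell from 317 and 447 to 48.0 and 75.3 (-2.63 ± 0.38).

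Some miRNAs bypass Drosha and are cut by Dicer only. Of the 7 measured, 5 fell and 0 rose in limma (7 tested; 195 of all 594 fell). miR-484 went from 3596 and 3273 reads to 50 and 88 reads (-4.67 ± 0.33, limma adjusted p = 3.44e-05), miR-320a-3p fell by 2.07 and miR-320b by 2.22. miR-320c (-1.86) and the mirtron miR-1227-3p (-3.09) had few reads. The call of miR-1227-3p was lost whichever library was left out (-3.28 to -2.90), and that of miR-320c in 3 of 4 such fits (-2.25 to -1.47). miR-320c was not called by median-ratio (-1.26) or upper-quartile scaling (-0.82), nor miR-1227-3p by upper-quartile scaling (-1.98). miR-451a, which matures without Dicer, had 134 and 196 RPMM in the wild type and 259 and 351 in hemizygous cells. The groups did not overlap in share, but the change of 0.89 ± 0.38 did not pass (limma adjusted p = 0.0941). On the RPM scale the groups overlapped, with 280 and 457 against 189 and 851, and the change was 0.16. It passed by median-ratio (1.47) and upper-quartile scaling (1.98).

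Summed by seed, shares of the miRNA reads moved between seeds. Loading into Argonaute and effects on targets were not measured here. The seeds named were chosen after their values were seen. The 533 matched miRNAs hold 422 seeds, 64 of them shared by 2 or more miRNAs. AAGUGCU, the seed of miR-302, miR-372, miR-373 and some chromosome 19 miRNAs (12 members), held 33.7% and 30.4% of the miRNA reads in the wild type and 42.9% and 41.0% in hemizygous cells. AUUGCAC, the seed of miR-367, miR-92 and miR-25, held 10.8% and 12.1% against 14.0% and 14.2%. AAAGUGC, the seed of miR-17-5p and miR-20a-5p shown above (8 members), dropped from 7.52% and 8.09% to 1.10% and 1.47%, from rank 3 of the seeds to rank 8. AAGGUGC, the seed of miR-18a-5p and miR-18b-5p, dropped 11.0-fold. In their place came the passengers of the same cluster. CUGCCCU of miR-18a-3p, CUGCAGU of miR-17-3p and CUGCAUU of miR-20a-3p, ranked 47, 51 and 83 in the wild type, ranked 5, 6 and 7 in hemizygous cells. These are sums of shares with no test of their own.

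The hemizygous arm ratios were tested directly against those of homozygous S1344L cells, the closest genotype. Of 186 hairpins, 0 differed in limma at an adjusted p under 0.05 (0%; the smallest adjusted p was 0.970), and 5 had an unadjusted p under 0.05. Those 5, named for that reason after their values were seen, were miR-505 (-1.66, 95% interval -2.79 to -0.54), miR-501 (-1.55), miR-34a (-1.28), miR-378a (-0.97) and miR-340 (-0.93), each with a smaller 3p excess in the hemizygous cells. Over 186 tests, more than 5 would have an unadjusted limma p under 0.05 on average if no ratio differed. The median difference over the 186 hairpins was -0.26 on the log2 scale with a median SE of 0.55. A miss of the threshold does not show equal ratios: for let-7a the interval ran from -2.11 to 0.39, for miR-15a from -1.25 to 1.37, for miR-20a from -1.08 to 0.96 and for miR-302b from -1.22 to 1.51. Without hemizygous replicate 2 the call counts were 1 toward 3p and 2 toward 5p.

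The Dicer-null libraries gave a level to compare with. They held 165317 and 137655 miRNA reads, 0.118 and 0.183 of their denominators, against 2.09 and 2.33 in the wild type. A share of miRNA reads in null cells is thus a share of a far smaller total. The miR-302 and miR-367 cluster held 58.2% and 50.8% of their miRNA reads, against 41.8% in each wild-type library. The source of the reads in the null libraries was not tested. On the deposited scale the 143 fallen 5p arms had a median of 1044 RPM in the wild type, 54.7 RPM in hemizygous cells and 25.5 RPM in null cells. In hemizygous replicate 1, 86 of them were at or below the higher of the null libraries, and in replicate 2, 20 were. These arms were picked for being low in hemizygous cells. Of all 227 5p arms, 119 and 34 were at or below it, and of all 300 3p arms, 13 and 4. Of the 36 3p arms that fell, 3 and 0 were. The low scale of hemizygous replicate 1 enters the first count, and its part was not tested.

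The hairpins whose sum fell and those whose sum rose differed in the first base of the 5p arm, as a description over 152 of 186 hairpins with a RefSeq match. The 5p arm began with U in 37 of 69 hairpins whose sum fell, in 3 of 18 whose sum rose and in 23 of 65 that did not pass. It began with A in 10 of 69, 10 of 18 and 15 of 65. The median gap between the arms, 16 bases, was the same in hairpins shifted toward 3p and in those whose ratio did not pass. The lengths and GC content of both arms and the first base of the 3p arm were looked at as well. The group whose sum rose is small and, as given above, changed when a wild-type library was left out. Hairpins of a cluster share sequence, so these counts are not of independent hairpins.

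The marker miRNAs of pluripotent cells, 9 of 9 measured, held 40.1% and 38.5% of the miRNA reads in the wild type. In hemizygous cells they held 51.7% and 50.4%, and in Dicer-null cells 52.6% and 46.0%. Because the share was this high in the null cells too, on a far smaller miRNA total, it does not test cell identity. In share 5 of the 9 rose and 2 fell, beside 100 and 195 of all 594 miRNAs. On the RPM scale 0 of the 9 rose and 1 fell. Neural markers (6 of 6 measured) held 1.05% and 0.828% against 1.67% and 1.20%, mostly miR-124-3p, which rose by 1.01 in share and was at 0.28 on the RPM scale. Of the other 5 neural markers 3 fell and 2 did not pass. Fibroblast markers (7 of 9 measured) held 2.11% and 2.40% against 0.562% and 0.892%, with 3 members lower and 0 higher in limma. Blood and endothelial markers (5 of 6 measured) held 0.173% and 0.184% against 0.264% and 0.334%, with 1 member higher and 1 lower. Muscle and endoderm markers (5 of 7) held at most 0.0601% in any of the 4 wild-type and hemizygous libraries, with 2 members lower. No measured marker was at 0 reads in these 4 libraries. Several of these markers are themselves 5p arms, and the part of other cell types in the results was not tested.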

How the data were processed

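Small RNA of H1 cells was sequenced in 8 libraries, 2 per genotype. The submitters' processing notes name cutadapt, limma and hg38, with no versions. The aligner, the counting and the denominators are not stated in the sources used. What the authors deposited is log2 RPM, with 0.5 reads added as its values show, where the design had assumed CPM; reads were recovered from it, and 100% of values were whole within 0.01 reads. The limit of 3 reads behind a count of 0 covers counting error only. The intervals for arm ratios against homozygous cells come from the limma SE, and so reflect the spread between libraries. With limma 3.58.1 in R 4.3.3, trended moderated variances and 1 mean per genotype over 8 libraries, log2(RPM + 1), log2(RPMM + 1), with RPMM reads per 1000000 miRNA reads, the log2 ratio of 3p to 5p RPM (1 added to each), and log2 of summed arms were tested, two-sided, with Benjamini-Hochberg adjustment at 0.05. All 594 miRNAs passed the filter of 5 RPM in 2 libraries. The fit was also run on simulated reads with known changes. That simulation had a fixed dispersion and no effect of replicate number, so it does not test the spread of these libraries. Replicate numbers are not taken to pair libraries. The members, lists, markers and tests were chosen with earlier results of these data known. Named miRNAs are the 12 largest rises and falls in share with non-overlapping groups and at least 50 RPMM in 1 group, 5p arms that rose, the 6 deepest 3p falls above 500 RPM, the 10 most abundant per library, and up to 6 per list. Named hairpins are the 10 largest shifts toward 3p, every shift toward 5p, the 8 smallest changes, 5 sums each way, and further list members chosen after their values were seen. Alternatives were other pseudocounts, filters, scalings, libraries in the fit, array weights, leaving out each library, and a block for the replicate number. A fit without the null libraries and one that adds the arms of numbered hairpin copies were added after seeing the data.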

Additional observations from a re-analysis of the deposited data

How the results depend on the processing

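Calls made on the deposited scale moved most: higher and lower miRNAs numbered 1 and 109 in a fit of only the 4 libraries compared, 2 and 117 with array weights, 172 higher by median-ratio and 224 by upper-quartile scaling, and from 3 to 92 higher and from 103 to 348 lower when 1 library was left out. A group left with 1 library is assumed to vary like the others. Shares called higher ran from 57 to 94 under leave-one-out, shifts toward 5p from 2 to 5 (6 with a pseudocount of 5), and hairpin sums called higher from 8 to 17. Against homozygous cells leave-one-out gave 0 to 1 hairpins toward 3p and 0 to 2 toward 5p. The 5p share difference was -32.8 points without the 5 most abundant miRNAs and -25.6 with hairpins weighted equally.

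Changes near 0 changed sign when 1 library was left out: miR-34b-5p ran from -0.32 to 0.37, miR-512-5p from -0.14 to 0.48 and miR-30e-5p from -0.012 to 0.19 in share, and the ratios of miR-532 from -0.51 to 0.59, miR-367 from -0.67 to 0.91, miR-455 from -0.026 to 0.54 and miR-30e from -0.20 to 1.38. miR-15b-5p was at 0.17 without the 5 most abundant miRNAs in the denominator. The cause was not tested. Of the named calls, 63 of 80 in share, 17 of 23 in ratio and 7 of 10 in sum kept direction and threshold in the settings run on that measure. Of the 63, 51 also passed the same way on the RPM, median-ratio and upper-quartile scales. Without the null libraries, a setting chosen after seeing the data, shares numbered 117 higher and 220 lower. Adding the arms of numbered hairpin copies, also chosen then, left 143 and 3 shifts in ratio and 20 and 84 in sum.

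With the replicate block the counts were 32 higher and 195 lower in level, 101 and 202 in share, 147 toward 3p and 4 toward 5p in ratio, and 22 and 87 in sum, and 0 and 0 against homozygous cells. It ended the calls of miR-135a-5p and of the sum of miR-653, brought miR-302a-5p past the threshold, and changed no other named call. The differences of replicate 1 from replicate 2 correlated across miRNAs, which are not independent, at r = 0.620 between wild type and hemizygous in share, but 2 numbers are too few to take them as pairs. Depth limits the hemizygous values of fallen 5p arms, many of which rest on under 100 reads.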
